A study of Mus musculus with 42 samples.

Results

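The 42 genes described here carry the glucose, glycogen and galactose metabolism of the liver. They were taken by name from a list, out of 19758 gene names in the deposited tables. The list was drawn up with earlier results of these data known. Of these 42, 41 were listed in all tables and tested. Eno1, an enolase gene of glycolysis, was listed in 1 of 6 tables only, with at most 3.21 normalized counts per mouse, and was below the minimum for testing.

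Each of 42 male C57BL/6J mice gave 1 whole-liver library, and the 6 groups held 7 mice apiece. WT mice were littermates of ChemR23 knockout (KO) mice, which lack the receptor for the lipid mediator resolvin E1 (RvE1) in all tissues after CRISPR/Cas9 editing. WT lean and KO lean mice ate a control diet with 10% of its energy from fat, and WT obese and KO obese mice ate a high-fat diet with 60%, both for 15 weeks from 6 weeks of age. All 4 of these groups were injected with an ethanol and PBS vehicle, while WT obese+RvE1 and KO obese+RvE1 mice ate the high-fat diet and received 300 ng of RvE1. Injections were intraperitoneal on 4 days, the livers were taken on day 5, and all mice had been fasted before harvest.

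Between meals the liver releases glucose, which it makes from lactate, amino acids and glycerol or frees from glycogen, and after meals it takes glucose up again through the transporter encoded by Slc2a2. Glycogen is built by glycogen synthase and branching enzyme and broken down by phosphorylase, and targeting subunits of protein phosphatase 1 hold the phosphatase on the glycogen particle, where it favours synthesis. Glycolysis runs the other way from glucose production, and insulin, glucagon and glucose itself set the transcription of several of its enzymes.

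Every value below is a normalized count, that is, reads per gene divided by the size factor of the library, as the authors deposited it. A difference between groups is given on the log2(normalized count + 1) scale, tested with limma over all genes of a table, and a gene was called at a BH-adjusted p under 0.1. Reads on listed genes ran from 15960120 to 43755273 per mouse, with a median of 24253532. The targeted gene, Cmklr1, had 40.8 to 114 normalized counts in WT lean and 9.72 to 22.6 in KO lean mice of 1 table, and 33.3 to 102 in WT obese and 5.08 to 23.2 in KO obese mice of another, so the genotypes did not overlap in either. The 6 hepatocyte markers summed to between 793046 and 1803180 normalized counts in every mouse. By the quality weights that limma gives to libraries, KO lean mice 20L and 20R had the lowest weights in the diet comparison of KO mice, 0.367 and 0.389. Results that turned on 1 library are given below with and without it.

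Each mouse carries an identifier that opens with a number, such as 20 in mouse 20R, and the labels do not say what the number stands for. Mice of a group shared 2 to 4 numbers, and only number 23 occurred in more than 1 group. Of the spread between mice of a group, a median of 62.6% lay between these numbers for the 41 members, beside 47.4% for 13070 genes and 33.3% that the number of sets alone would give. It was 86.5% for Ppp1r3b, 81.9% for Ugp2 and 80.4% for Pfkfb3, against 19.5% for Gckr and 25.2% for Galk1. Numbers lay within groups, so what they stand for and the group cannot be told apart. A fit with the number as a random block is therefore given wherever it changed a call. That fit uses the same correlation for all genes of a comparison, from 0.06 to 0.37 by comparison. It can therefore correct too little for members with a large share of spread between numbers.

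The members spanned a wide range of levels. Per kb of merged exons, Pck1, which encodes the cytosolic enzyme that commits carbon to glucose production, was highest in WT lean liver, with 26973 ± 7487 (SD, n = 7) normalized counts per kb. Fbp1, another enzyme of glucose production, followed with 11014 ± 990 per kb and G6pc, the catalytic subunit that releases free glucose, with 7149 ± 2702 per kb. The lowest Pck1 value, 16378 per kb, lay above the highest of Fbp1, 12307, while Fbp1 (from 9682) and G6pc (4415 to 11839) overlapped. The lowest were Pck2, the mitochondrial counterpart of Pck1, at 12.4 ± 2.3 per kb, and Pmm1, a phosphomannomutase, at 10.5 ± 1.73. Pklr, the pyruvate kinase of hepatocytes, stood at 1855 ± 658 per kb and Pkm, the form of most other cells, at 33.9 ± 8.38. Pck1, Fbp1 and G6pc were among the first 4 of 41 genes in each of the 6 groups. Reads of Gapdh, Tpi1, Pgk1, Pgam1, Aldoa, Ldha, Pkm and Eno1 may be shared with processed copies of these genes elsewhere in the genome, so their levels are less certain.

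**Figure D1:**
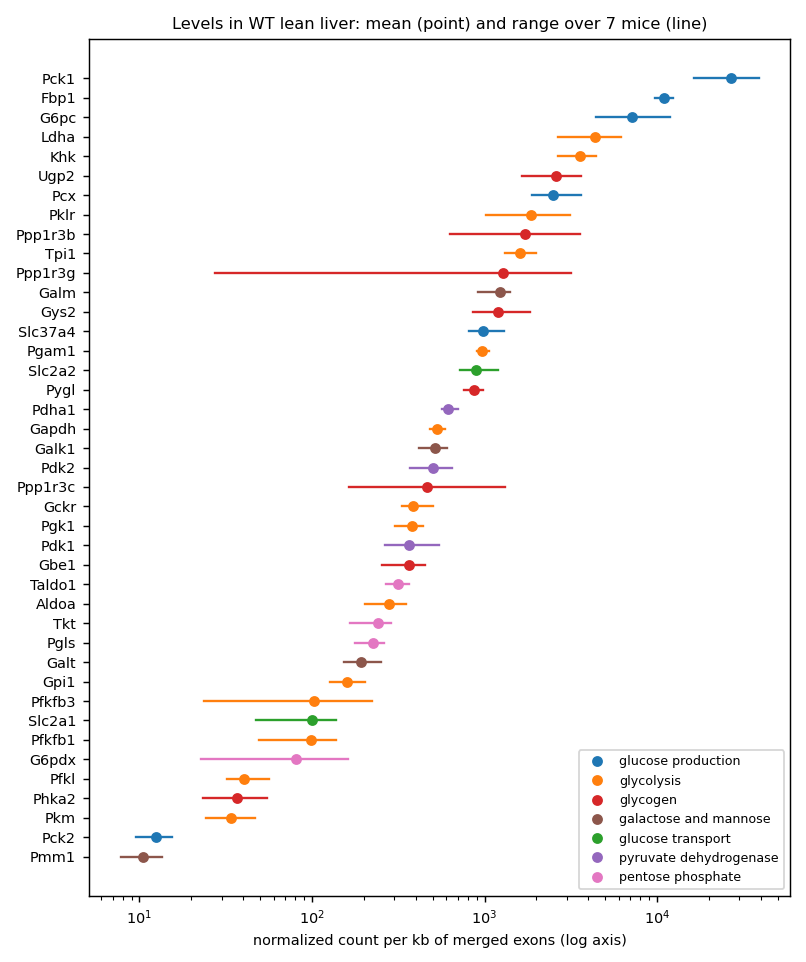
Level of each of the 41 tested members in WT lean liver, as normalized count per kb of merged exons on a log axis; points are means of 7 mice, lines run from the lowest to the highest mouse and colours mark roles. Pck1 at 26973 per kb heads the list and Pmm1 at 10.5 closes it, and the long line of Ppp1r3g spans a 116-fold range between mice.

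The same plot shows which members differed most between mice of 1 group. The SD between mice, pooled over the 6 groups, was 2.42 on the log2 scale for Ppp1r3g, 1.19 for Pfkfb3, 0.97 for Ppp1r3c and 0.74 for Ppp1r3b. Ppp1r3b, Ppp1r3c and Ppp1r3g encode glycogen-targeting subunits of protein phosphatase 1, and Pfkfb3 encodes the enzyme that makes and removes fructose 2,6-bisphosphate, the activator of phosphofructokinase. In WT lean mice, Ppp1r3g ran from 73.4 to 8529 normalized counts, a 116-fold range.

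Promoter letters are shown for the 4 members that were called with a fold change above 1.5 and hold a searched motif in the 150 bases before a RefSeq start site. The motifs were CACGTG, the E-box core read by carbohydrate response and clock factors among others, and TGACGTCA, the cAMP response element. Both read the same on either strand and they do not overlap each other. Sequences are from RefSeq on GRCm38.p6, run 5′ to 3′ on the strand of the gene up to the base before the start site, and have the motifs in capitals.
Ppp1r3c, chr19:36736605-36736754, minus strand: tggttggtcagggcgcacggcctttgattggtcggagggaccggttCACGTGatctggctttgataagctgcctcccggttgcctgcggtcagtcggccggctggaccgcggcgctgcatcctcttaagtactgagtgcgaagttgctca
Pfkfb3, chr2:11502091-11502240, minus strand: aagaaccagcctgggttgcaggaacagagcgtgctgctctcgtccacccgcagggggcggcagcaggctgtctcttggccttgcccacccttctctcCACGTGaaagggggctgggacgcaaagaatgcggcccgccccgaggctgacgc
Ldha, chr7:46845654-46845803, plus strand: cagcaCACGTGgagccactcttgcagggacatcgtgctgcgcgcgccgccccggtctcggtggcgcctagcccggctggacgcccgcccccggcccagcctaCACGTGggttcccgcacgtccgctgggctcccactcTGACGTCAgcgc
Galk1, chr11:116012720-116012869, minus strand: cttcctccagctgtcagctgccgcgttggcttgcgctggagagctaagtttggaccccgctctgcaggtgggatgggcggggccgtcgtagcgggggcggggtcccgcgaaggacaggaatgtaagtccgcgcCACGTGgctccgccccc

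Of the 42 members, 39 had a window of 300 bases (250 before and 50 after a start site) in the RefSeq table, 57 windows in all. CACGTG was found in 8 of these 57 windows, or 14%, against 7.15% of all 32851 windows. The 8 genes were Pcx, Pfkfb3, Ldha, Khk, Ppp1r3c, Pdk2, Galk1 and Galt. TGACGTCA was found in 1 member window, that of Ldha, and in 1.79% of all windows. These matches describe letters in a window and were not tested as binding sites.

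The first question was how the high-fat diet changed these genes in WT liver. In WT mice, 3 of 41 members were called, all higher in WT obese than in WT lean mice. Among all 14012 genes tested, 6.27% were called, 3.65% higher and 2.61% lower. At an unadjusted p under 0.05 there were 9 members (22%), beside 18.2% of all genes.

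Pmm1, which interconverts mannose phosphates and lies on chromosome 15 from 81951108 to 81960930 (GRCm38, minus strand), moved furthest of the 3. WT lean mice ran from 22.3 over a median of 29.3 to 38.6 normalized counts, and WT obese mice from 64.7 over 79.2 to 106. Every WT obese mouse lay above every WT lean mouse. The means were 30.2 ± 4.96 and 79.9 ± 13.8 (SD, n = 7 each), or 1.37 ± 0.15 (SE) in log2 fold change at an adjusted p of 0.000212. It was the only called member with a fold change above 1.5, beside 3.8% of all genes, and 1.36% of all genes had groups that did not overlap.

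The other called members bring glucose phosphate and glucose across membranes. Slc37a4, the glucose 6-phosphate translocase of the endoplasmic reticulum, rose by 0.55 ± 0.15 (SE, log2) at an adjusted p of 0.0479. Slc2a2, the GLUT2 transporter of the hepatocyte surface, rose by 0.47 ± 0.14 at an adjusted p of 0.0708. In both genes the groups overlapped, with 4 and 3 WT obese mice above the highest WT lean mouse. Taking the identifier number as a block cost the call of Slc2a2, at an adjusted p of 0.145, and on leaving out any of 6 mice: WT lean 19R, 21R, 8RL or 8R, or WT obese 27-2L or 27-2R, where its adjusted p ran from 0.1 to 0.136. Leaving out WT lean 26L or WT obese 22L took the count of called members from 3 to 5. The shares of all genes called in those fits are not given here.

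Neither G6pc (log2 fold change -0.44, adjusted p = 0.39) nor Pck1 (-0.52, adjusted p = 0.276) passed the test in WT mice, and no glycogen member did. Ppp1r3g had the largest difference in size, -2.68 (SE 0.93, adjusted p = 0.128), with 73.4 to 8529 normalized counts in WT lean and 98.6 to 662 in WT obese mice. The low WT lean values were those of the 2 mice whose identifiers open with 8, at 73.4 and 185, while the other 5 WT lean mice lay between 1853 and 8529. G6pdx, which feeds glucose into the pentose phosphate pathway, stood at -0.95 ± 0.37 (SE), adjusted p = 0.178. The edgeR quasi-likelihood test on recovered reads called both, Ppp1r3g at an adjusted p of 0.0252 and G6pdx at 0.0914, and so did the DESeq2 Wald test. Neither tool takes account of the identifier numbers. With the number as a block, limma gave adjusted p of 0.254 for Ppp1r3g and 0.364 for G6pdx. The 2 WT lean mice whose identifiers open with 8 had the highest G6pdx values of their group, 436 and 499.

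Of 77 other genes of these pathways that were tested, 8 rose and 3 fell in WT obese mice, beside 6.27% of all genes called. Those with a fold change above 1.5 were Ldhd, a D-lactate dehydrogenase (0.62, adjusted p = 0.00696), Tkfc, a triokinase of fructose breakdown (0.62, adjusted p = 0.0353), Nhlrc1, a ubiquitin ligase of glycogen quality control (0.79, adjusted p = 0.0998), and Pdk4, a kinase that switches off pyruvate dehydrogenase (-2.10, adjusted p = 0.087). Of 13 core clock genes, 5 were called in the same comparison, 3 higher and 2 lower, among them Per3 (1.48, adjusted p = 0.00284) and Npas2 (-1.93, adjusted p = 0.0671). The part of the clock genes in these results was not tested.

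The same question was asked in KO mice. Between KO obese and KO lean mice, 19 of 41 members (46.3%) were called, 13 higher and 6 lower, beside 24.1% of all 14213 genes, 12% higher and 12.1% lower. With a fold change above 1.5 there were 9 members, beside 10.4% of all genes. Members and roles were chosen with earlier results of these data known, so their shares beside those of all genes are a description and not a test. The median difference (log2) was 0.03 over the members and -0.002 over all genes.

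**Figure D2:**
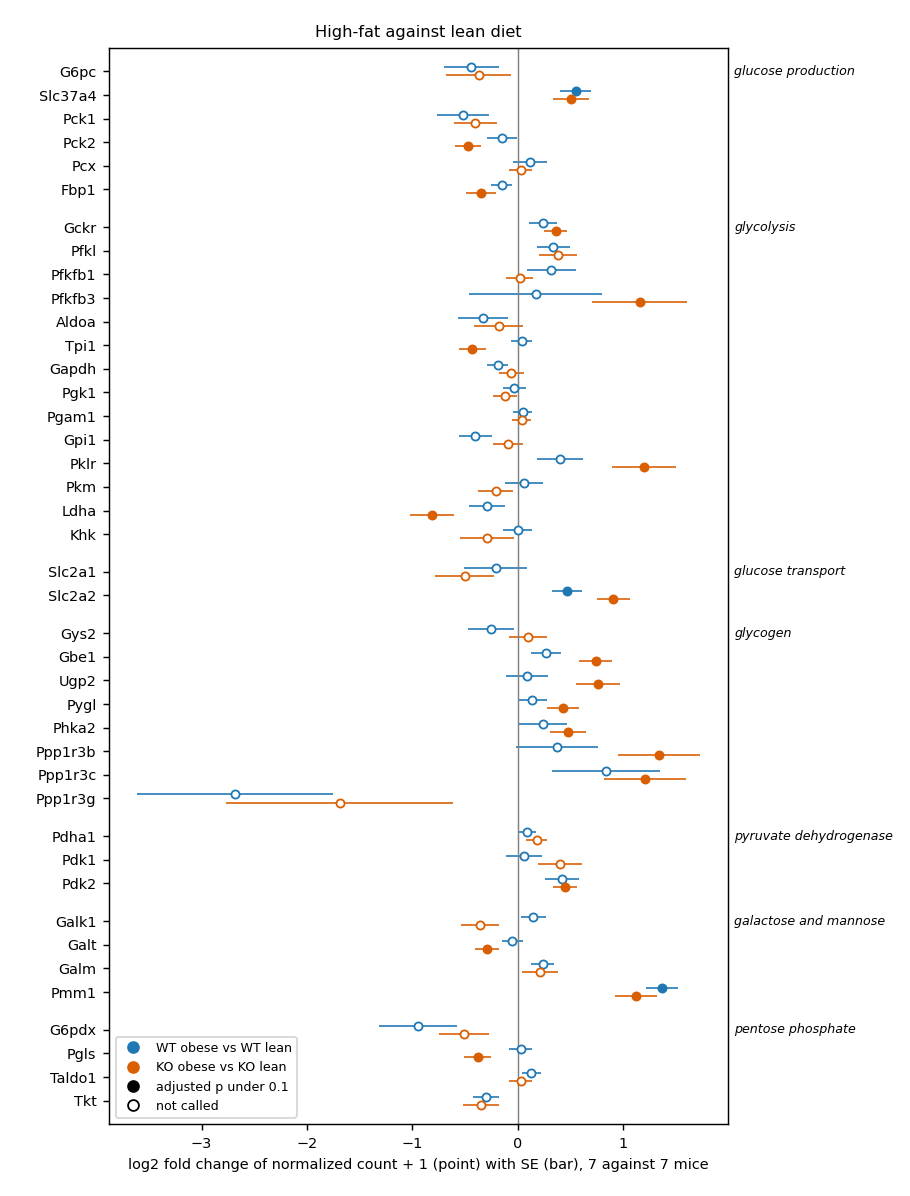
log2 fold change of each member between obese and lean mice, blue in WT and orange in KO mice, with the SE as a bar and filled points for genes called at an adjusted p under 0.1; genes are ordered by role. In KO mice 6 of 8 glycogen genes are filled and lie right of 0, in WT mice none is; Pmm1 lies at 1.37 and 1.12.

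Of the 8 glycogen genes 6 were called, all higher in KO obese mice, and their median log2 fold change was 0.61. With the identifier number as a block 3 of 8 were called, Gbe1 (adjusted p = 0.0299), Ugp2 (0.0576) and Ppp1r3b (0.0577). The correlation of that block, shared by all genes, was 0.24. Of the spread within groups, 81.9% for Ugp2 and 86.5% for Ppp1r3b lay between numbers, so their p-values in this fit can be too small. Ppp1r3b, a glycogen-targeting subunit abundant in liver (chromosome 8 from 35375739 to 35388139, plus strand), ran from 2438 over a median of 4215 to 12045 normalized counts in KO lean and from 7065 over 16655 to 23379 in KO obese mice. The groups overlapped, with 4 of 7 KO obese mice above the highest KO lean mouse. The means were 6288 ± 3881 and 14720 ± 6632 (SD, n = 7 each), or 1.34 ± 0.39 (SE) in log2 fold change at an adjusted p of 0.0314.

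Ppp1r3c, the targeting subunit also called PTG, whose promoter with an E-box core is printed above, lies on chromosome 19 from 36731731 to 36736653. It had 343 to 1304 normalized counts in KO lean mice (median 936) and 825 to 5800 in KO obese mice (median 2073). In 5 of 7 KO obese mice it was above the highest KO lean mouse, and the means were 936 ± 343 and 2473 ± 1743. In log2 fold change this was 1.21 ± 0.39 (SE) at an adjusted p of 0.0481, but with the random block the call was lost, at an adjusted p of 0.114.

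Gbe1, the branching enzyme of glycogen (chromosome 16 from 70313949 to 70569716), separated the diets completely. KO lean mice had 1233 to 2451 normalized counts (median 1783) and KO obese mice 2508 to 3704 (median 2920). The means were 1864 ± 502 and 3035 ± 457, or 0.74 ± 0.16 (SE) in log2 fold change at an adjusted p of 0.0103. Only 3 of 41 members had groups that did not overlap, and 2.1% of all genes did.

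Ugp2, which makes the UDP-glucose that glycogen synthase uses (chromosome 11 from 21321138 to 21371201), had 4038 to 11121 normalized counts in KO lean (median 4675) and 8752 to 11578 in KO obese mice (median 10275). In KO lean mice 4 values lay together between 4038 and 4675, and the other 3, from 7607 upward, were those of the mice with identifiers that open with 20. In log2 fold change this was 0.76 ± 0.21 (SE) at an adjusted p of 0.0263, from means of 6457 ± 2794 and 10221 ± 1137. Pygl, the liver phosphorylase that breaks glycogen down, rose by 0.43 (adjusted p = 0.065), and Phka2, a subunit of the kinase that activates it, by 0.48 (adjusted p = 0.069). Both calls were lost with the block, at adjusted p of 0.134 and 0.234. Gys2, the liver glycogen synthase, stood at 0.10 ± 0.18 (SE), adjusted p = 0.749, and Ppp1r3g at -1.69 ± 1.08 (adjusted p = 0.296), the only glycogen member below 0. Under TMM, equal read totals and the length and GC correction 7 of 8 were again above 0, with 6, 6 and 5 called. The shares of all genes called under these scalings are not given here. Under equal read totals the median of all genes was 0.14, and that of the glycogen members 0.75.

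In glycolysis, 2 members with a fold change above 1.5 rose and 1 fell. Pklr (chromosome 3 from 89136142 to 89146784), which makes pyruvate in hepatocytes and is induced by carbohydrate, had 2181 to 8847 normalized counts in KO lean mice (median 4400) and 7258 to 21717 in KO obese mice (median 8639). The groups overlapped through 1 KO lean mouse, 20L at 8847, which lay above 4 KO obese mice, and 3 of 7 KO obese mice were above it. The means were 4843 ± 2343 and 10709 ± 5093, or 1.20 ± 0.30 (SE) in log2 fold change at an adjusted p of 0.0188.

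Pfkfb3 (chromosome 2 from 11471433 to 11554077) ran from 164 over a median of 388 to 1260 normalized counts in KO lean and from 415 over 996 to 1884 in KO obese mice. The means were 538 ± 403 and 1063 ± 529. At 1.16 ± 0.45 (SE) in log2 fold change and an adjusted p of 0.0869 it was the least firm of the 9: the call was lost on leaving out any of 9 of 14 mice (adjusted p up to 0.177), with the random block (adjusted p = 0.125), in edgeR (0.126) and in DESeq2 (0.139). The mice were KO lean 14-2L, 14RL, 9L and 9RL and KO obese 10RL, 23L, 31L, 31N and 31R.

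Ldha (chromosome 7 from 46841475 to 46855627), which interconverts pyruvate and lactate and carries both motifs in its promoter, was the only member to fall with a fold change above 1.5. KO lean mice had 16171 to 32434 normalized counts (median 23574), and KO obese mice 9374 to 19640 (median 12346), with 5 of 7 KO obese mice below the lowest KO lean mouse. The means were 23451 ± 6636 and 13454 ± 4352, or -0.81 ± 0.21 (SE) in log2 fold change at an adjusted p of 0.0207. Tpi1, the triose phosphate isomerase, fell by 0.43 (adjusted p = 0.0413), and Gckr, which holds glucokinase in the nucleus, rose by 0.36 (adjusted p = 0.0411).

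Of the transporters, Slc2a2 (chromosome 3 from 28697903 to 28731359) was called as in WT mice. It had 3063 to 6286 normalized counts in KO lean mice (median 4586) and 6720 to 11306 in KO obese mice (median 8522), with no overlap. The means were 4593 ± 1181 and 8481 ± 1468, or 0.91 ± 0.16 (SE) in log2 fold change at an adjusted p of 0.0042. Slc2a1, the transporter of most other cells, had -0.50 (SE 0.28, adjusted p = 0.227).

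Pmm1 was the third member without overlap. KO lean mice had 23.2 to 60.4 normalized counts (median 40.1) and KO obese mice 70.0 to 129 (median 86.7), with means of 40.9 ± 12.1 and 88.5 ± 20.8, or 1.12 ± 0.20 (SE) in log2 fold change at an adjusted p of 0.0042. Galt, the uridylyltransferase of galactose breakdown, fell by 0.29 (adjusted p = 0.0879).

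Glucose production went in both directions. Slc37a4 rose by 0.51 (adjusted p = 0.0513), while Pck2 fell by 0.47 (adjusted p = 0.0233) and Fbp1 by 0.35 (adjusted p = 0.0935). G6pc and Pck1 had log2 fold changes of -0.37 (adjusted p = 0.451) and -0.40 (adjusted p = 0.168). Pdk2, a kinase of pyruvate dehydrogenase, rose by 0.45 (adjusted p = 0.0176), and Pgls, an enzyme of the pentose phosphate pathway, fell by 0.38 (adjusted p = 0.0526). By role, 3 of 6 genes of glucose production, 5 of 14 of glycolysis, 1 of 2 transporters, 1 of 3 around pyruvate dehydrogenase, 2 of 4 of galactose and mannose and 1 of 4 of the pentose phosphate pathway were called. The 22 members that did not pass had log2 fold changes from -1.69 (Ppp1r3g) to 0.40 (Pdk1).

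**Figure D3:**
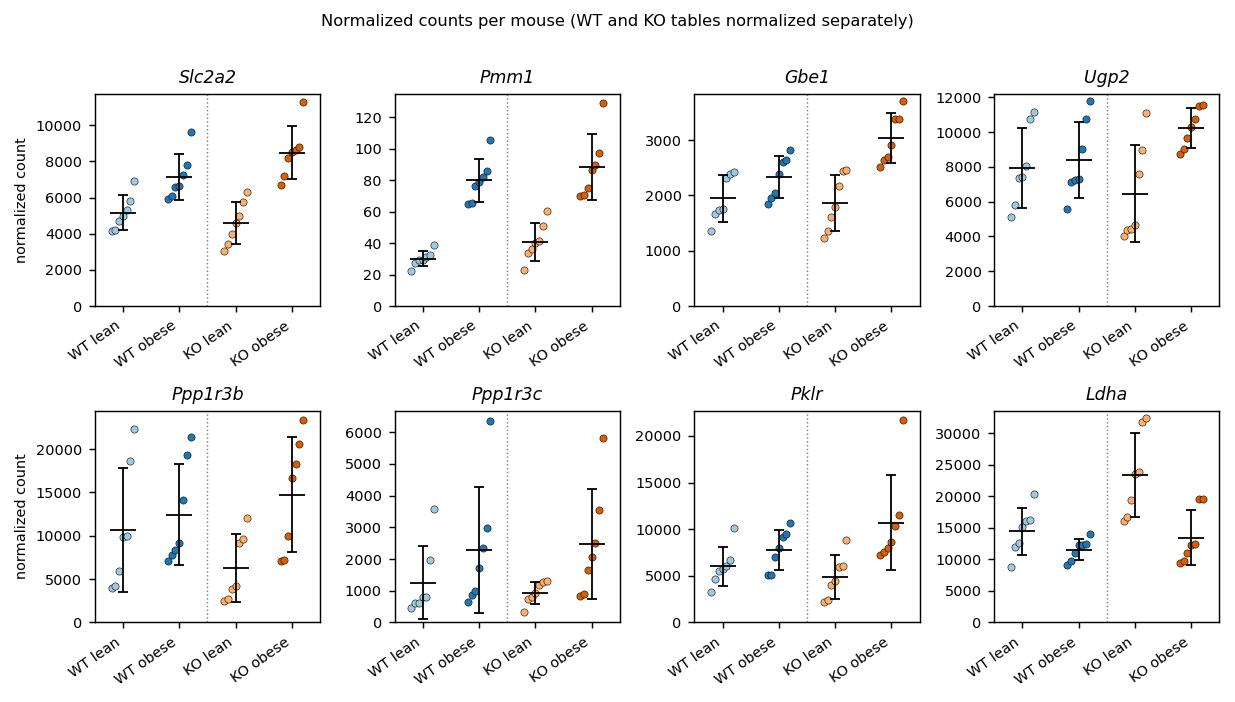
Normalized counts of 8 members in each mouse (points), with the group mean (line) and SD (bars, n = 7); WT and KO values come from tables normalized separately and are divided by the dotted line. Slc2a2, Pmm1 and Gbe1 separate KO obese from KO lean mice without overlap, and Ppp1r3b and Ppp1r3c spread widely inside each group.

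When the identifier number was a block, 9 of the 19 members were called: Slc2a2, Pmm1, Gbe1, Pklr, Ugp2, Ppp1r3b, Pdk2, Ldha and Pck2, beside 7.44% of all genes. Among the others, the adjusted p became 0.116 for Slc37a4, 0.128 for Tpi1, 0.133 for Gckr, 0.189 for Pgls, 0.219 for Galt and 0.243 for Fbp1. The number of called members also depended on the scaling. Dividing by equal read totals moved the median of all genes by 0.142 (log2), and 17 members were then called higher and 1, Ldha, lower. Correction for gene length and GC content left 12, 10 higher and 2 lower. Without KO lean 9L, 12 members were called, and over all mice left out in turn 12 to 23. The shares of all genes called, higher or lower, are not given here for these scalings and left-out mice. These counts therefore do not set the members apart from other genes. In the 14 fits that left out 1 mouse each, 12 members kept their call throughout. Slc37a4 lost it without KO lean 9L (adjusted p = 0.106) or KO obese 31R (0.108), and Pgls without 9L, KO obese 10R or 31R (0.104 to 0.107). Pygl was called in 9 of the 14 fits, Phka2 in 8, Fbp1 and Pfkfb3 in 5 and Galt in 3, with adjusted p up to 0.14, 0.148, 0.181, 0.177 and 0.171.

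Markers of other cell types moved in the same comparison. Of 6 Kupffer cell markers 5 were lower in KO obese mice, and their sum was 3919 to 5328 normalized counts against 7086 to 15124 in KO lean mice. Of 6 endothelial markers 3 were lower (2138 to 4056 against 3291 to 4694 in sum), and of 5 lymphocyte markers tested 4 were lower (21.2 to 51.5 against 60.6 to 116). No hepatocyte marker rose and Hpx fell, with sums of 998112 to 1579735 against 1141501 to 1448344. In bulk liver, fewer cells of a type and less RNA per cell cannot be told apart, and the part of these markers in the members' results was not tested. Of the 13 clock genes 3 were higher and 1 lower.

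Of 79 other genes of these pathways, 12 rose and 9 fell in KO obese mice, beside 24.1% of all genes called. Among those with a fold change above 1.5 and the smallest adjusted p were Slc2a9, a transporter of urate and hexoses (0.60, adjusted p = 0.00547), Ugdh, which oxidises UDP-glucose (0.61, 0.00646), Rpia, a ribose isomerase (0.78, 0.014), Tkfc (0.69, 0.024) and Ppp1r3f, another targeting subunit (-0.76, 0.0252). Mlxipl, which encodes the carbohydrate response factor ChREBP, rose by 0.55 (adjusted p = 0.0247) and its partner Mlx fell by 0.46 (adjusted p = 0.0183); both were named after their values were seen.

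The diet comparisons in WT and KO mice share no mice. All 3 members called in WT mice were also called in KO mice, with the same sign. Of the 19 called in KO mice, 17 had a log2 fold change of the same sign in WT mice and 2, Tpi1 and Pgls, the other sign. Shared calls and signs were not counted over all genes, so these counts do not set the members apart from other genes. The 19 were picked by their KO values, so the sizes of their changes are not compared between genotypes here.

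Whether the diet effect differed between genotypes was tested with an interaction term, the KO effect minus the WT effect. limma called 0 of 41 members, beside 0.00717% of all 13945 genes, and 6 members (14.6%) had an unadjusted p under 0.05, beside 18.3% of all genes. edgeR called 0 members and DESeq2 called 1, Tpi1. Tpi1 had the smallest p, with a difference of -0.47 (95% interval -0.81 to -0.13, adjusted p = 0.15), followed by Pgls at -0.41 (-0.75 to -0.07, adjusted p = 0.187) and Galk1 at -0.52 (-0.98 to -0.06, adjusted p = 0.216). For Ppp1r3b the difference was 0.96 (-0.24 to 2.17), for Slc2a2 0.44 (0.00 to 0.88) and for Pmm1 -0.26 (-0.76 to 0.25). These intervals are wide, so equal effects in both genotypes are not shown either. Without KO lean 20R, 3 members were called, beside 13.2% of all genes: Tpi1 (adjusted p = 0.0336), Galk1 (0.0751) and Pgls (0.0893).

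The next question was whether the genotype alone changed these genes. In lean mice, 1 of 41 members was called between KO and WT, beside 16.3% of all 13031 genes (8% called higher), and 12 members (29.3%) had an unadjusted p under 0.05, beside 26.8% of all genes. This comparison shares its KO lean mice and its WT lean mice with the diet comparisons, so the values are not independent of them.

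The called member was Galk1, the galactokinase that starts galactose breakdown (chromosome 11 from 116008457 to 116012719), whose promoter is printed above. WT lean mice had 609 to 887 normalized counts (median 745) and KO lean mice 795 to 1847 (median 1189), and 5 of 7 KO lean mice were above the highest WT lean mouse. The means were 756 ± 112 and 1222 ± 367, or 0.65 ± 0.17 (SE) in log2 fold change at an adjusted p of 0.0433. The fold change was above 1.5, as in 6.65% of all genes. The call was kept with each mouse left out in turn (adjusted p 0.00664 to 0.0958) and was lost with the random block, at an adjusted p of 0.146, where 0 members were called.

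Tpi1 and Pkm came next, with 0.34 (adjusted p = 0.112) and 0.36 (adjusted p = 0.115), neither past the test. All 8 glycogen members had a log2 fold change below 0, with a median of -0.42. All 8 were below 0 under the 3 other scalings too, with a median of -0.42 under TMM and the length and GC correction and -0.54 under equal read totals, where the median of all genes was -0.12. Under equal read totals 3 of them were called lower, Gys2, Ugp2 and Pygl. Under the length and GC correction 1 was, Ugp2 (-0.77, adjusted p = 0.0737). With the deposited scaling and TMM none was called, and with the deposited scaling 4 had an unadjusted p under 0.05. In KO lean mice Ppp1r3b had -0.93 (SE 0.45, adjusted p = 0.192), Ugp2 -0.55 (SE 0.25, adjusted p = 0.164) and Gys2 -0.45 (SE 0.20, adjusted p = 0.162). Without KO lean 20R, 9 members were called, beside 27.2% of all genes. Without KO lean 20-2L there were 2, and without WT lean 21R or 8RL there were 3. Under library quality weights 18 were called, 6 higher and 12 lower, beside 33% of all genes, and under equal read totals 6, of which 5 were lower: Pck1, Slc2a2, Gys2, Ugp2 and Pygl. The shares of all genes called are not given here for equal read totals, for the length and GC correction or for the fits without 20-2L, 21R or 8RL. Under equal read totals the median of all genes was below 0 too. Those counts therefore do not set the members apart from other genes.

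Of 76 other pathway genes, 8 rose and 6 fell in KO lean against WT lean mice, beside 16.3% of all genes called. Mpc1, a subunit of the mitochondrial pyruvate carrier, rose by 0.79 (adjusted p = 0.0399) and Sik1, a kinase that restrains glucagon signalling, fell by 1.29 (adjusted p = 0.0509). Mlxipl fell by 0.48 (adjusted p = 0.0661) and Mlx rose by 0.36 (adjusted p = 0.0656), both named after their values were seen. All 6 Kupffer markers were higher in KO lean mice, with a sum of 6430 to 13714 normalized counts against 2620 to 6082, and Ms4a1, 1 of 3 lymphocyte markers tested, was higher too. The hepatocyte marker Hpx was higher, and none of the 13 clock genes was called. The part of these markers in these values was not tested.

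In obese mice, limma called 0 of 41 members between KO and WT, beside 0.0141% of all 14162 genes, and none had an unadjusted p under 0.05. edgeR and DESeq2 called 0 members too. The smallest p values belonged to Gbe1 (2925 ± 429 in KO obese against 2565 ± 418 in WT obese mice, 0.19, SE 0.12), Galt (460 ± 29.5 against 498 ± 22.4, -0.12, SE 0.07) and Pdha1, a subunit of pyruvate dehydrogenase (2921 ± 292 against 2676 ± 246, 0.13, SE 0.09), all at an adjusted p of 1. The 8 glycogen members were spread on both sides, 5 above and 3 below 0, with a median of 0.03, and under equal read totals 2 above and 6 below. Ppp1r3b had 0.03 (SE 0.32) and Galk1 0.14 (SE 0.14). The obese mice are the same as in the diet comparisons.

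Last, RvE1 was compared with vehicle in obese mice. In WT mice, limma called 0 of 41 members, beside 0% of all 13085 genes, and 1 member (2.44%) had an unadjusted p under 0.05, beside 6.08% of all genes. That was G6pdx, with 71.4 to 115 normalized counts in WT obese+RvE1 (median 95.8) and 74.6 to 191 in WT obese mice (median 137), or -0.43 ± 0.19 (SE) in log2 fold change at an adjusted p of 0.798. Galk1 followed with 0.26 (SE 0.13, adjusted p = 0.868) and Galt with 0.14 (SE 0.07, adjusted p = 0.874). Slc2a2, Ppp1r3b and G6pc had -0.09 (SE 0.13), -0.01 (SE 0.24) and -0.24 (SE 0.35).

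In KO mice, which lack the receptor, limma also called 0 of 41 members, beside 0% of all 14207 genes. Here 7 members (17.1%) had an unadjusted p under 0.05, beside 8.3% of all genes, and all 7 had lower values with RvE1: Pfkfb1, Pfkfb3, Gys2, Ppp1r3b, Ugp2, Gbe1 and Slc37a4. Their adjusted p ran from 0.557 to 0.592. edgeR and DESeq2 called 0 members in either genotype, and in KO mice 4 and 5 members had an unadjusted p under 0.05 by these tools. The shares of all genes under 0.05 by these tools are not given here, so these counts cannot be set beside other genes.

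Pfkfb1, Pfkfb3 and Gys2 had the smallest p. Ppp1r3b, chosen after its values were seen, had 4167 to 16087 normalized counts in KO obese+RvE1 (median 7851) and 7142 to 23470 in KO obese mice (median 16787), or -0.81 ± 0.33 (SE) in log2 fold change at an adjusted p of 0.572. Gys2 had 1325 to 2781 (median 2038) against 2125 to 3660 (median 2614), -0.45 (SE 0.18, adjusted p = 0.572). The groups overlapped in both genes.

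Pfkfb1, the liver form of the fructose 2,6-bisphosphate enzyme, had 296 to 453 normalized counts against 347 to 571 (-0.39, SE 0.14, adjusted p = 0.557). Pfkfb3 had the widest gap: 6 of 7 KO obese+RvE1 mice lay between 169 and 348, below the lowest KO obese mouse at 419, while mouse 23-2L had 2681. The estimate, -1.38 ± 0.51 (SE) in log2 fold change, had an adjusted p of 0.557, and over all mice left out in turn its adjusted p ran from 0.128 to 0.862.

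**Figure D4:**
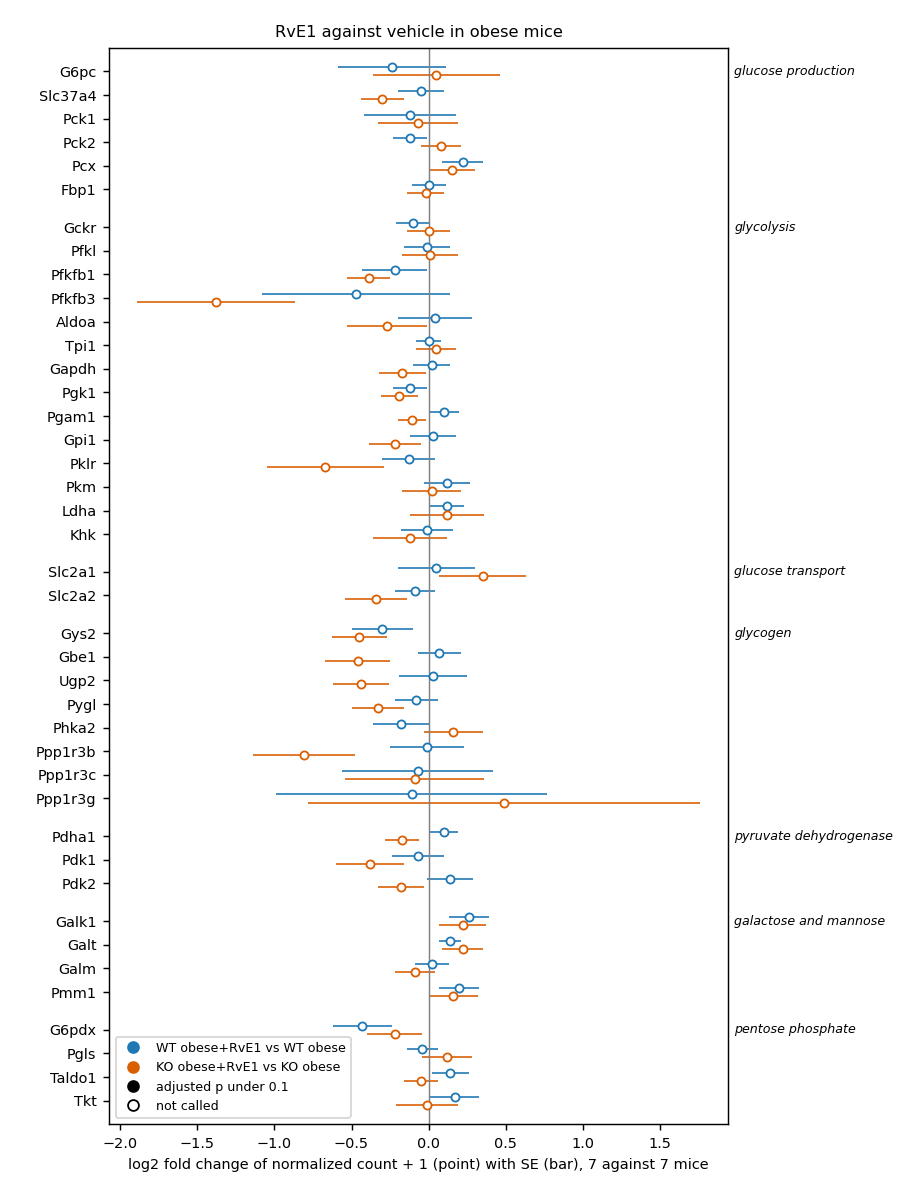
log2 fold change of each member between RvE1 and vehicle in obese mice, blue in WT and orange in KO mice, with the SE as a bar; genes are ordered by role and all points are open since none was called. Pfkfb3 at -1.38 and Ppp1r3b at -0.81 in KO mice lie furthest left, and Ppp1r3g has the longest bars.

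The difference in the RvE1 effect between genotypes was tested in the same way as for diet. limma called 0 of 41 members, beside 0% of all 13079 genes, and 0 members had an unadjusted p under 0.05, as in edgeR and DESeq2 where 0 were called. The smallest p values were those of Gbe1 (-0.53, 95% interval -1.06 to 0.01), Pdha1 (-0.27, -0.56 to 0.02) and Ppp1r3b (-0.80, -1.68 to 0.07), each at an adjusted p of 1.

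The spread between mice of a group was itself shared by some members. Deviations from the group mean on the log2 scale were compared for 6 pairs of related genes over all 42 mice, with permutations within groups (100000, two-sided) and BH adjustment over the 6 pairs. The permutations treat all mice of a group as exchangeable and ignore the identifier numbers. Their p-values can therefore be too small where mice with the same number resemble each other. Ppp1r3b and Ppp1r3g had a Pearson r of 0.59 (permutation p = 0.00017, adjusted 0.00102) and a Spearman rho of 0.60 (permutation p = 0.00014, adjusted 0.00069). Gys2 and Pygl had an r of 0.54 (permutation p = 0.00059, adjusted 0.00177) and a rho of 0.58 (permutation p = 0.00023, adjusted 0.00069). G6pc and Pck1, which glucagon raises together, had an r of 0.49 (permutation p = 0.00484, adjusted 0.00968) and a rho of 0.43 (permutation p = 0.0107, adjusted 0.0214).

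These 3 relations kept r at 0.54, 0.56 and 0.51 without the 2 mice farthest from the median of the first gene. They did not hold inside sets of mice with the same group and identifier number, where r was -0.06, 0.13 and 0.24 over the 39 mice that share a number with another mouse of their group. Ppp1r3c went with neither of the other targeting subunits, at r of 0.18 with Ppp1r3b (permutation p = 0.276, adjusted 0.312; rho 0.20, permutation p = 0.231, adjusted 0.329; 0.35 without the 2 farthest mice) and 0.17 with Ppp1r3g (permutation p = 0.312, adjusted 0.312; rho 0.12, permutation p = 0.447, adjusted 0.447; 0.17 without them). Galk1 and Galt had r of 0.30 (permutation p = 0.0986, adjusted 0.148) and rho of 0.19 (permutation p = 0.274, adjusted 0.329), and 0.14 without the 2 farthest mice. Inside the numbers r was 0.30, -0.01 and 0.46 for these 3 pairs.

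**Figure D5:**
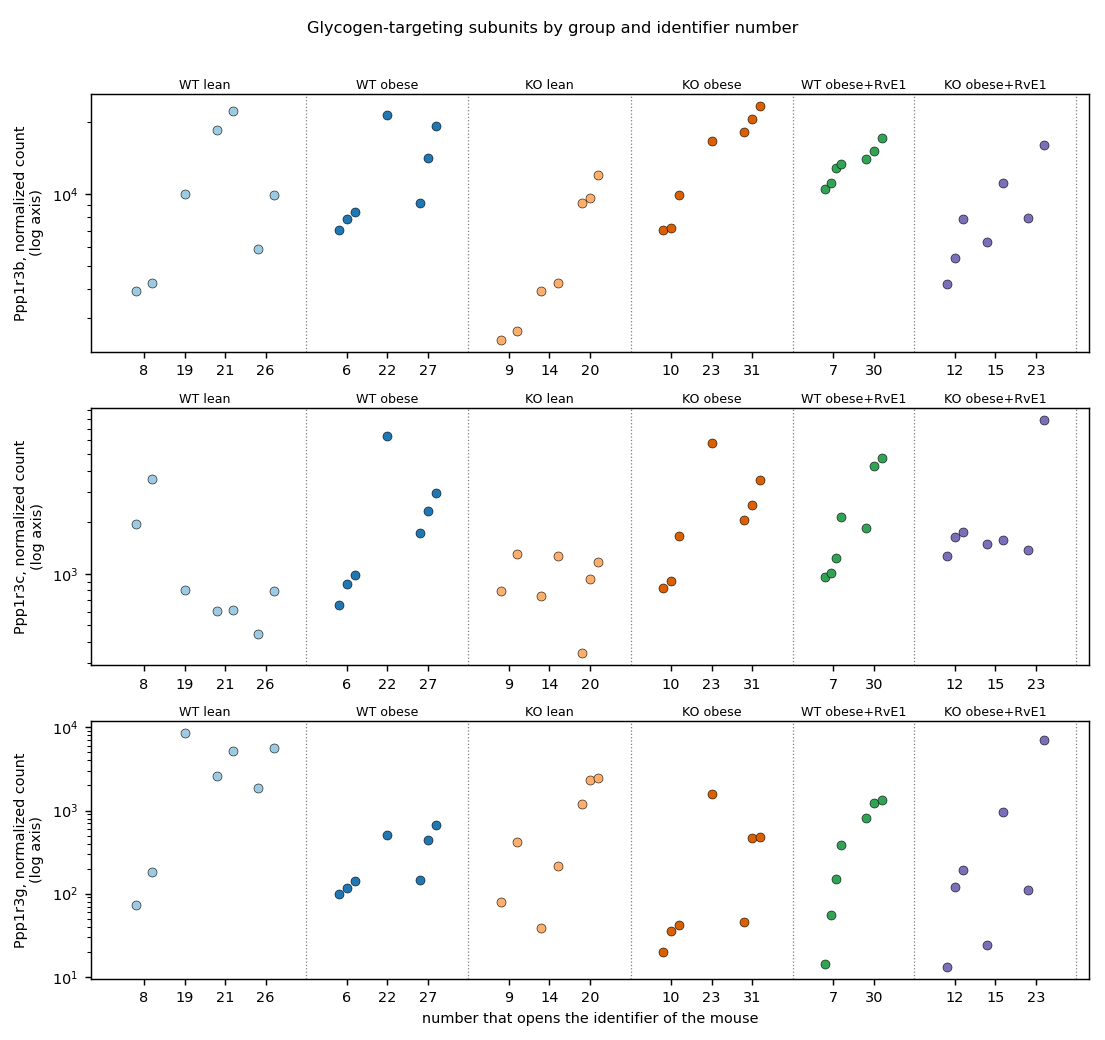
Normalized counts (log axis) of Ppp1r3b, Ppp1r3c and Ppp1r3g in each mouse, ordered by group and by the number that opens the identifier of the mouse. Ppp1r3b in KO lean mice lies at 2438 to 2652 for number 9, 3905 to 4215 for 14 and 9189 to 12045 for 20; Ppp1r3g is high in the mice numbered 20 as well.

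The plot by number shows the layers inside a group. In KO lean mice Ppp1r3b had 2438 to 2652 normalized counts in the 2 mice numbered 9, 3905 to 4215 in the 2 numbered 14 and 9189 to 12045 in the 3 numbered 20. In KO obese mice it had 7065 to 9928 in the 3 mice numbered 10 and 18247 to 23379 in the 3 numbered 31. The sets of a group did not overlap in either case, and sets of different groups did. In the WT groups the sets of a group did not overlap either. In KO obese+RvE1 mice they did, with 4167 to 7851 for number 12, 6287 to 11081 for 15 and 7897 to 16087 for 23. Ppp1r3g in KO lean mice had 1212 to 2447 in the 3 mice numbered 20 against 38.7 to 414 in the other 4.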

How the data were processed

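Liver RNA of 42 mice was sequenced by the authors as stranded TruSeq read pairs. According to the paper's methods and the labels, they aligned the pairs to mm10 with Bowtie2, counted them per gene with featureCounts and ran DESeq2 once per comparison. The deposited signal values are counts divided by size factors, in 6 tables of 14 libraries, each normalized on its own. Which tool versions, annotation of genes and strand option they chose is not given in the sources. The authors' fold changes and p-values in the same tables were not used. Whole reads were recovered for 100% of the values, within 0.1 reads, and a library listed in several tables had 0 differing reads. Counting error is relatively smaller for genes with many reads, and so larger for Pck2, Pmm1 and Pkm than for Pck1. The pooled SD between mice of a group (log2) was still lower for them, at 0.20, 0.29 and 0.31 against 0.51 for Pck1.

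Groups came from the labels and were compared only inside a table. The fits were also run on counts simulated with independent mice and the same spread setting for every gene. That check does not cover the wider spread of some members or the spread shared by mice with the same number. limma (3.58.1, lmFit and eBayes with trend, R 4.3.3) was run two-sided on log2(normalized count + 1) for genes with a mean of at least 5, with BH adjustment over all genes, and fold changes on that scale understate changes of low genes. Nothing in the labels says that mice of a group came from separate litters, so p-values measure the spread between these mice. Alternatives were pseudocounts of 0.5 and 4, no filter, TMM, equal read totals, length and GC correction (loess span 0.3), library quality weights, the identifier number as a random block, edgeR 4.0.16 (quasi-likelihood; 898 and 3574 of all genes called for diet in WT and KO mice), DESeq2 1.42.0 (Wald; 1367 and 3962), an adjusted p under 0.05, a fold change above 1.5 and leaving out each mouse. Members, roles, other pathway genes and markers were chosen with earlier results of these data known. Values are given for every member called with a fold change above 1.5, for the 3 smallest p where fewer than 3 were called, and for up to 6 other pathway genes per comparison. Adipocyte and skeletal muscle markers were too low to test in nearly all tables (1 adipocyte marker passed in 1 table), of 3 erythroid markers tested 1 was called, lower in KO obese than KO lean mice, and no pancreatic marker was called. Gene loci and lengths came from GENCODE M21 on GRCm38, matched by symbol for 98.5% of names, and promoters from RefSeq. Some genes are left out of this account.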

Additional observations from a re-analysis of the deposited data

Results flagged for a closer look

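In 63 sets of 7 mice (a named member in a group), 5 held a mouse whose gap to the nearest other mouse, on the log2 scale, as a share of the range, was above Dixon's 95% critical value. Chance alone flags about 1 set in 20. Pfkfb3 in KO obese+RvE1 mice had 2681 normalized counts in mouse 23-2L against 169 to 348 in the other 6, a gap of 0.740 of the range. Galt in KO obese mice had 545 in mouse 23L against 457 to 476, a gap of 0.771. Fbp1 in KO lean mice had 32839 in mouse 20L against 19181 to 23160, a gap of 0.649. Pklr in KO obese mice had 21717 in mouse 31R against 7258 to 11523, a gap of 0.578. Ppp1r3c in KO lean mice had 343 in mouse 20R against 742 to 1304, a gap of 0.578. Mice 23-2L and 23L carry the only number that occurs in both KO obese groups, as does KO obese+RvE1 mouse 23RL. In mouse 23-2L, Ppp1r3g (7088), Ppp1r3c (7947) and Ppp1r3b (16087) were also the highest of KO obese+RvE1 mice. Mouse 23RL had 111, 1368 and 7897 for these 3 genes and 284 for Pfkfb3, far from the values of 23-2L.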

How the results depend on the processing

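In WT obese against WT lean mice, 3 members were called. edgeR and DESeq2 each called 5, a fold change above 1.5 left 1, and leaving out 1 mouse gave 2 to 5. In KO obese against KO lean mice, where 19 were called, the length and GC correction gave 12, the random block 9, an adjusted p under 0.05 12, a fold change above 1.5 9, and leaving out 1 mouse 12 to 23. In KO lean against WT lean mice, where 1 was called, equal read totals gave 6, the length and GC correction 3, library quality weights 18, the random block 0, DESeq2 4 and leaving out 1 mouse 1 to 9. For the diet by genotype interaction, where 0 were called, library quality weights gave 9, DESeq2 1 and leaving out 1 mouse 0 to 3. The counts of 0 between KO obese and WT obese mice, for RvE1 in WT and in KO mice and for the RvE1 by genotype interaction stayed at 0 under every alternative, including each mouse left out (0 to 0). The share of all genes called also changed between fits and is not given for each of them here. The counts by themselves therefore do not set the members apart from other genes. The cause of these shifts was not tested. Of 480 values of named members under alternatives that kept all mice, 425 stayed on their side of the threshold, 49 lost it and 6 gained it, all with the same sign where called. The 425 include members that were not called and stayed so, and thus do not measure how firm the calls were. In the KO diet comparison the random block alone lost 10 calls and kept 9. Equal read totals moved the median of all genes by 0.142 (log2) in the KO diet comparison and by -0.116 between KO lean and WT lean mice, so directions near 0 there are relative to the scaling. No paired analysis was possible because the groups compared share at most 1 identifier number (23, in KO obese and KO obese+RvE1 mice). Depth is no limit for most members, while Eno1 and rare transcripts could not be tested.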
